A study of Mus musculus with 9 samples.

Results

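A set of 10 genes that lead the expression profile of Frzb-expressing glia of the mouse olfactory system were followed through single-cell RNA sequencing of brains of 4 groups of mice: Npy, Il13ra2, Aqp1, Mybpc1, Vtn, Fibin, Clca3a1, Bgn, Col12a1 and Tmprss5. These genes, of 32287 measured, were chosen by their high level in these same cells, so their levels, their specificity and their co-detection with Frzb are given as a description and were not tested. The change with age and with genotype inside the glia was tested over mice. The genes were chosen with earlier results of these data known, so these tests are not shown to be independent of the choice.

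All mice were TiCY, a strain in which the Nr2e1 (Tlx) promoter drives a tamoxifen-inducible Cre (CreERT2) and recombination switches on an eYFP reporter at the ROSA26 locus in neural stem cells (NSCs) and their progeny. The strain designation also carries the allele Fastm1Cgn, shared by all groups. Wild-type (WT) young mice were 16 weeks old (tamoxifen at 10 weeks, chase of 6 weeks) and WT old mice 80 weeks (tamoxifen at 71 weeks, chase of 9 weeks). The TiCY-IFNAGRKO strain (KO) lacks the type-I and type-II interferon receptor genes Ifnar1 and Ifngr1. KO young mice were 16 weeks old (tamoxifen at 7 weeks, chase of 9 weeks), and KO old mice 92 to 105 weeks (tamoxifen at 85 and 98 weeks, chase of 9 weeks), where the ages given and the chase do not add up exactly. The chase differed between the WT young group and the other 3.

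Both tissues were sorted: the ventricular-subventricular zone (vSVZ), and a pool of olfactory bulb, rostral migratory stream and striatum named rest of the brain (RoB), after removal of CD45+, Ter119+ and O4+ cells. Hashtag antibodies marked tissue and mouse, and the 2 mice of a group were run in 1 reaction, so that reaction and group cannot be told apart. Reads were counted as unique molecular identifiers (UMIs), and 18055 cells passed the filters, with a median of 5067 UMIs per cell in WT young and 7091 to 7437 in the other groups. Of the barcode sequences, 30 occurred in more than 1 library, among them those of 10 of the glia described here, and leaving these cells out changed no call on the 10 genes. In the glia described here the targeted gene Ifngr1 had 134 and 118 CPM (UMI counts scaled to the total of the cells summed) in young and old WT mice, against 4.28 and 4.76 CPM in the KO groups. Ifnar1 had 32.6 and 30.1 CPM against 5.95 and 5.56 CPM.

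Olfactory ensheathing glia wrap the axons of olfactory sensory neurons on their way from the nasal epithelium into the olfactory bulb, and they accompany the renewal of these axons throughout life. They arise from the neural crest and share Sox10 with Schwann cells and oligodendrocytes. Frzb, a secreted Wnt antagonist of the frizzled-related family, marks them in the bulb, and the 10 genes add secreted signals, matrix proteins, a water channel and a cytokine receptor to this profile.

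Frzb-rich glia were defined by clustering without the 10 genes: clusters in which at least 50% of cells held a Frzb UMI. There were 2 such clusters with 2024 cells, of which 192 came from young and 607 from old WT mice and 453 from young and 772 from old KO mice. A hashtag was called in 1516 of these glia and in 4299 other cells. Of those called, 98.4% of the glia carried the RoB tag, against 32.8% of the other cells. The sort took eYFP+ and GLAST+ cells from the vSVZ, and eYFP+ and eYFP-negative PSANCAM-low cells from the RoB. The part of these gates in the contrast was not tested. The eYFP transcript had a UMI in 4.10% of the Frzb-rich glia, close to 4.86% in microglia-like cells (median of 8001 and 5249 UMIs per cell), while 71.1% of neuroblast-like cells had one.

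The label of ensheathing glia was checked against 10 markers. In each cluster 9 were raised, with Apod at 10308 and 19208 CPM and Sox10 at 367 and 298 CPM. Ngfr, the p75 receptor often used for ensheathing glia, was near 0, at 2.63 and 0.254 CPM. The first cluster, with 1170 cells, also had Cldn5, an endothelial tight-junction gene, among its 10 leading genes. Cldn5 was at 979 CPM there, against 44.2 CPM in the other cluster of 854 cells. Itm2a, another endothelial marker, was at 94.7 CPM in the first and 27.7 CPM in the second cluster, against 27.1 CPM in all other cells. The other endothelial markers listed, Pecam1, Flt1, Cdh5, Ly6c1 and Pglyrp1, lay at or under 0.115 CPM in both clusters. By the naming rule used, only the second cluster could be called ensheathing glia-like, and the 2 are therefore called the Vtn-rich and the Npy-rich cluster of Frzb-rich glia.

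Positions were taken from GENCODE vM21 (GRCm38). All 10 genes are protein-coding. Npy lies on chromosome 6 from 49822710 to 49829507 (plus strand) and Aqp1 on the same chromosome from 55336432 to 55348555 (plus strand). Vtn lies on chromosome 11 from 78499091 to 78502324 (plus strand), Clca3a1 on chromosome 3 from 144729677 to 144760977 (minus strand), and Fibin, a gene of 1 exon, on chromosome 2 from 110360917 to 110363183 (minus strand). Il13ra2 (147383476 to 147429192, minus strand) and Bgn (73483602 to 73495933, plus strand) are on chromosome X. Mybpc1 spans chromosome 10 from 88518279 to 88605152 (minus strand), and Col12a1 (79598991 to 79718831, minus strand) and Tmprss5 (49081260 to 49117587, plus strand) are both on chromosome 9. Clca3a1 and Col12a1 each overlap an annotated antisense gene, and Clca3a1 has a near relative, Clca3a2, at 1.45 to 9.79 CPM over the mice, so its reads may be split between the 2 genes.

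The stretches of 250 bases just before a RefSeq transcription start are shown for 5 genes, because they allow the 2 patterns reported below to be set against sequence: Npy and Il13ra2, higher in the Npy-rich cluster, and Vtn, Clca3a1 and Tmprss5, higher in the Vtn-rich cluster. They were taken from RefSeq (GRCm38.p6), which held 9 of the 10 genes and not Col12a1, and are written 5′ to 3′ on the strand of the gene. The RefSeq start of Vtn lies shortly past the GENCODE start given above, and that of Tmprss5 lies well inside the GENCODE span, so its window belongs to an internal start. Capitals mark the core of an interferon-stimulated response element, GAAANNGAA on either strand.
Npy promoter, chr6:49822460-49822709, plus strand: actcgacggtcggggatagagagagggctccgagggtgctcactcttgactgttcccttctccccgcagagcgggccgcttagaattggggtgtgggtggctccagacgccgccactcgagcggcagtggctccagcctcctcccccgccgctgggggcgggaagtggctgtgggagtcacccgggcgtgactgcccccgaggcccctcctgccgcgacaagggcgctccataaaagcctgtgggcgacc
Il13ra2 promoter, chrX:147429193-147429442, minus strand: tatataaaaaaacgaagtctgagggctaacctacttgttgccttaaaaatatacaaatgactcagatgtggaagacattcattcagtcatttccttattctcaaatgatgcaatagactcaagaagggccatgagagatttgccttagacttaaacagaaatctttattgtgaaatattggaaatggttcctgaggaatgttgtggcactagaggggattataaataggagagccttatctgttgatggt
Vtn promoter, chr11:78498870-78499119, plus strand: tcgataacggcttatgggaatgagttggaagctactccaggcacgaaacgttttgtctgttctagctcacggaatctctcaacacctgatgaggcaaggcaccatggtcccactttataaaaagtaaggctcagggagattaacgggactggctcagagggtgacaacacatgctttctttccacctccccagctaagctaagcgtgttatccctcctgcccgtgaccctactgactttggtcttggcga
Clca3a1 promoter, chr3:144760978-144761227, minus strand: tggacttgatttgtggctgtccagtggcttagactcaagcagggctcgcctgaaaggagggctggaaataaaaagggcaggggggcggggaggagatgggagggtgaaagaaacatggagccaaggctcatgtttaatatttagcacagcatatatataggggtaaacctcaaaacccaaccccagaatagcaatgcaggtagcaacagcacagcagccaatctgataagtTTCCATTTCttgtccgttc
Tmprss5 promoter, chr9:49102478-49102727, plus strand: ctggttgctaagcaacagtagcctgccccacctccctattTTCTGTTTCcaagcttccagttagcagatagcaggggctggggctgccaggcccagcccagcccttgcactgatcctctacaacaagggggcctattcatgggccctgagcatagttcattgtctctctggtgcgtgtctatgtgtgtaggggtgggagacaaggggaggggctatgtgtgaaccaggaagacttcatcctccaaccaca

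These promoters differed in base composition. Npy had 69.2% G and C with 21 CpG dinucleotides in its 250 bases, and Il13ra2 had 36.0% with 1 CpG, although both genes were highest in the same cluster. Over all 32851 promoter windows the medians were 52.4% and 6 CpG. Over windows that also took in 50 bases past the start, the interferon core was found in Clca3a1 (19 bases before the start), in Vtn (past the start) and in the first of 2 listed Tmprss5 windows, and 8.56% of all windows held it. The GAS motif TTCNNNGAA was found in Vtn and in Frzb (8.30% of all windows), and the SOX core ACAAAG in none of the 9 genes (18.7% of all windows). A match describes letters only.

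Each gene had most of its UMIs in the Frzb-rich glia, which were 11.2% of all cells. The share ran from 85.8% for Bgn and 94.4% for Vtn to 98.9% for Il13ra2. It varied most between libraries for Bgn, from 67.2% to 93.7%, and for Vtn, from 87.9% to 99.3%. The UMI counts come from the 3′ end, 1 per captured molecule, and were not divided by transcript length, so levels are compared between cells and not between genes.

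Npy, the gene of the secreted peptide neuropeptide Y, reached 9995 CPM in the Frzb-rich glia and had a UMI in 99.2% of them, with a median of 72 UMIs per cell. A UMI of it was found in 8.04% to 12.7% of cells in 9 of the other 10 classes with at least 100 cells, microglia-like cells among them (9.42%, 19.6 CPM, 3.01% after thinning each cell to 2000 UMIs). Of neuron-like cells, 16.5% of 665 held an Npy UMI and 13 cells held 10 or more, with a level of 120 CPM (95% Poisson interval 110 to 130, counting error only). After thinning their share was 8.20%, which lay below the 10.7% of unnamed cluster 16 and above the 6.52% of endothelial-like cells, so the shares alone do not set neuron-like cells apart. The ratio of Npy to Vtn UMIs was 23.7 in neuron-like cells, from 593 Npy and 25 Vtn UMIs. This ratio was 3.30 in the Frzb-rich glia and 4.83 in neuroblast-like cells. In the 82 OPC-like cells (oligodendrocyte precursors) it was 21.3, but from 64 Npy and only 3 Vtn UMIs. Vtn counts were also low in microglia-like cells (34 Npy and 4 Vtn UMIs) and in oligodendrocyte-like cells (19 and 2). With so few Vtn UMIs, the ratio cannot set OPC-like cells apart from these classes. In OPC-like cells Npy was found in 43.9% of cells at 78.8 CPM, but in 7.41% after thinning.

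Vtn encodes vitronectin, an adhesive glycoprotein bound by integrins that contain the alpha-v chain. Its level was 3033 CPM in the Frzb-rich glia, with a UMI in 93.6% of cells. The highest level of Vtn was elsewhere: an unnamed cluster of 39 cells led by Dcn and Rgs5, genes of fibroblasts and pericytes, had 9882 CPM (9484 to 10292) and a UMI in 84.6% of cells. That cluster also exceeded the glia in Bgn, the proteoglycan biglycan (247 CPM, 187 to 319, against 144 CPM), and its level of Col12a1, a chain of the fibril-associated collagen XII, was 93.6 CPM (58.7 to 142), a range that includes the 86.4 CPM of the glia. Its Fibin level was 42.5 CPM (20.4 to 78.2), the highest outside the glia, in 7.69% of its cells. It held 26 cells of KO young and 3 to 5 of each other group, and its Vtn level ran from 842 CPM in 3 WT old cells to 32753 CPM in 5 WT young cells, so it is a class of few cells with an unsettled level.

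Fibin, a secreted factor named after fin bud initiation, and Tmprss5, a membrane-anchored serine protease also called spinesin, were also found in oligodendrocyte-like cells, the class with the highest level of Tmprss5 outside the glia. Of 134 such cells, 15.7% held a Tmprss5 UMI (95% exact binomial interval 9.97% to 22.95%) and 9.70% a Fibin UMI (5.27% to 16.0%), at 20.1 and 16.0 CPM. In microglia-like cells 0.608% of 329 cells held Tmprss5 and 0 held Fibin, with a median of 5249 UMIs per cell against 8815. None of the Tmprss5 or Fibin UMIs of the oligodendrocyte-like cells lay in the 3 of them that held a Frzb UMI. O4+ cells were removed in the sort, so few oligodendrocytes were left to measure.

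The remaining genes had low levels in every other class. Il13ra2, a receptor chain that binds interleukin-13 and lacks a long signalling tail, had 250 CPM in the glia and at most 5.63 CPM (3 UMIs) in any other class. Aqp1, a water channel, had 485 CPM against 11.3 CPM, and Mybpc1, the myosin-binding protein C of slow muscle fibres, had 299 CPM against 9.38 CPM. Clca3a1, of a family of regulators of calcium-activated chloride channels, had 878 CPM against 33.8 CPM. In all 4 genes the next highest class was the endothelial-like one of 104 cells, in which 3 cells with a Frzb UMI held 6 of 6 Aqp1 UMIs and 95.4% of the Npy UMIs.

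**Figure D1:**
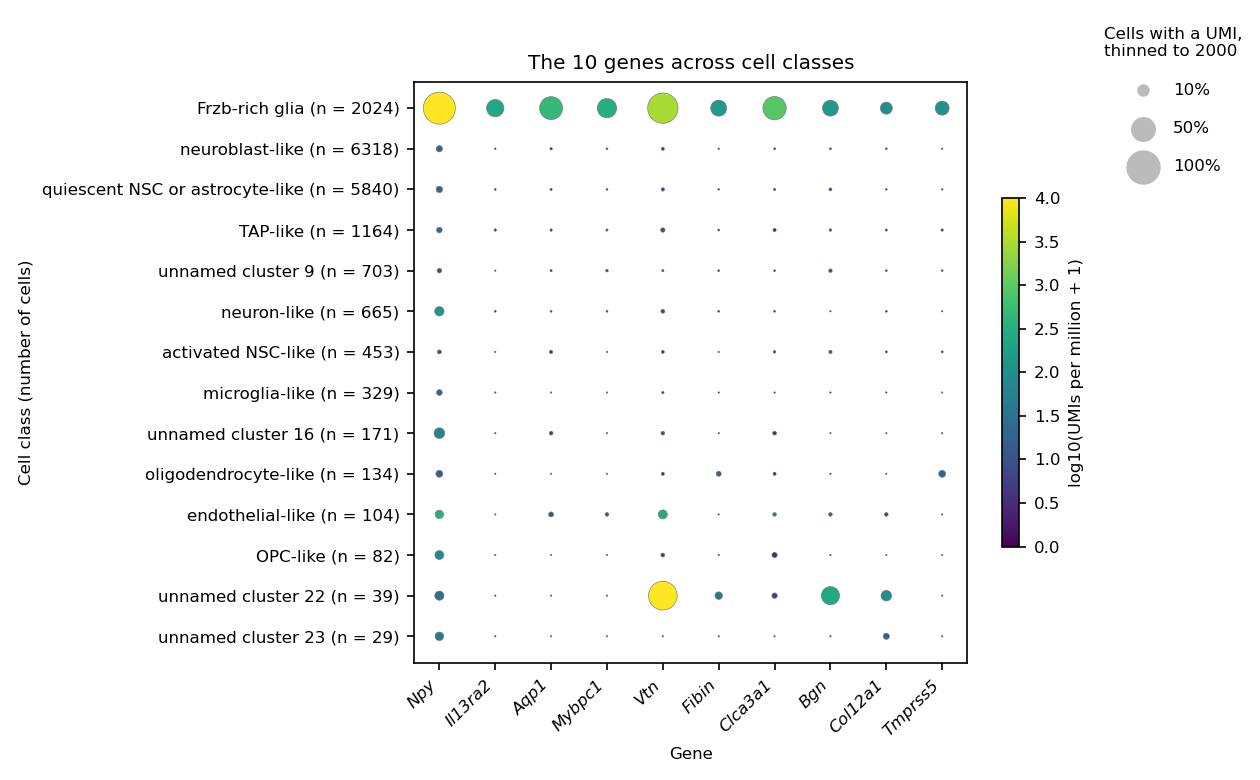
Level and detection of the 10 genes in each cell class; colour is log10 of the level in CPM plus 1, and dot area is the percent of cells with a UMI after each cell was thinned to 2000 UMIs. All 10 genes fill the top row of Frzb-rich glia, Vtn and Bgn are also high in unnamed cluster 22 of 39 cells, and Npy has small dots in every class.

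Co-detection with Frzb was counted over all cells. A Frzb UMI was present in 96.4% of the 1015 cells with Il13ra2, in 95.1% of those with Mybpc1 and in 94.3% of those with Fibin. It was present in 77.7% of cells with Bgn and 56.7% of the 3624 cells with Npy. Seen from Frzb, 88.0% of its 2336 cells held Npy, 81.7% Vtn and 29.7% Col12a1, the least often detected of the 10. After thinning to 2000 UMIs the value was 69.1% for Npy and 88.1% for Il13ra2. A median of 6 of the 10 genes was found per Frzb-rich cell and 0 in each of the other named classes, and 98.9% of Frzb-rich cells held at least 3 of them. At least 5 of the genes were found in 1839 Frzb-rich cells and in 7 cells of all other classes.

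The 10 genes split between the 2 clusters. Npy, Il13ra2, Aqp1 and Mybpc1 were higher in the Npy-rich cluster and Vtn, Fibin, Clca3a1, Bgn, Col12a1 and Tmprss5 in the Vtn-rich cluster, each in 8 of 8 mice. The 10 genes had been left out of the clustering, but genes that vary with them had not. Il13ra2, Npy, Mybpc1 and Aqp1 were among the 10 leading genes of the Npy-rich cluster against all other cells. Clca3a1, Col12a1, Tmprss5, Fibin and Vtn were among those of the Vtn-rich cluster. The split is therefore not independent of the choice of genes and is a description. Frzb itself had 1171 and 1284 CPM in the Vtn-rich and the Npy-rich cluster and was higher in the latter in 7 of 8 mice.

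Il13ra2 had the widest split towards the Npy-rich cluster. It ranged over the mice from 17.4 to 90.1 CPM (median 68.2) in the Vtn-rich cluster and from 340 to 472 CPM (median 408) in the Npy-rich cluster, a ratio of 6.04 over pooled cells. The ratios of Mybpc1, Aqp1 and Npy were 2.54, 2.09 and 1.98. Npy was therefore abundant in both clusters, from 4565 to 7873 CPM in the Vtn-rich and from 10749 to 14988 CPM in the Npy-rich cluster, with a median of 35 and 122 UMIs in the cells that held it.

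Towards the Vtn-rich cluster the split was widest for Col12a1. Col12a1 ranged from 112 to 205 CPM there (median 143) and from 11.2 to 26.8 CPM (median 15.3) in the Npy-rich cluster, a ratio of 11.6. Tmprss5, Clca3a1 and Bgn had ratios of 4.83, 4.68 and 4.07, Fibin of 2.87 and Vtn of 1.58. Vtn, although it names the cluster here, was present at 2084 to 3017 CPM in the Npy-rich cells. Over the 8 mice the ranges of Vtn in the 2 clusters overlapped between 2647 and 3017 CPM.

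**Figure D2:**
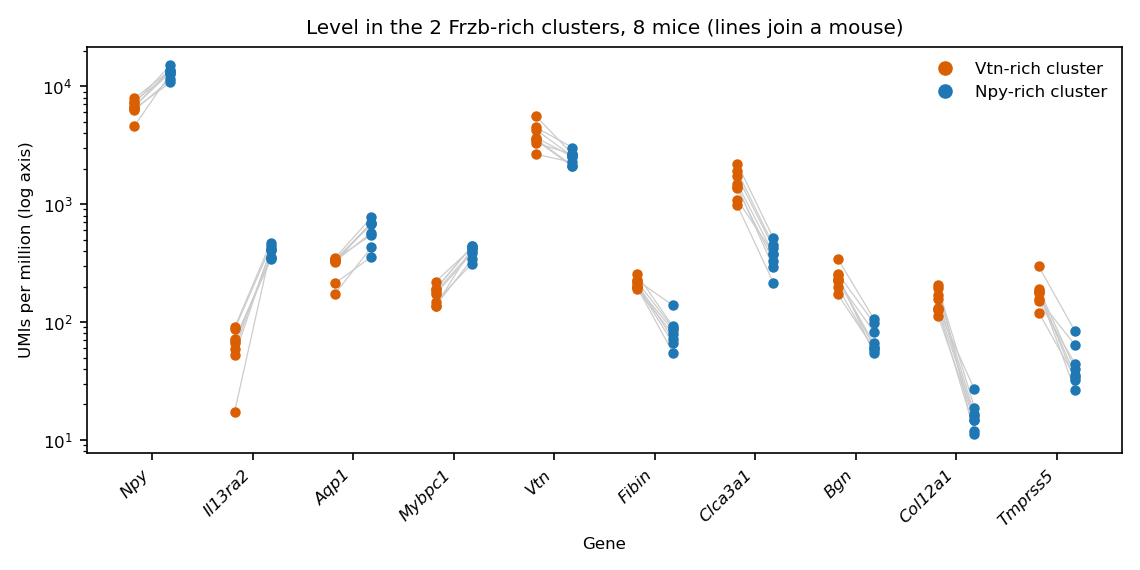
Level in CPM (log axis) of each gene in the Vtn-rich cluster (orange) and the Npy-rich cluster (blue), 1 point per mouse and cluster, with lines joining the 2 values of a mouse. The lines rise for Npy, Il13ra2, Aqp1 and Mybpc1 and fall for the other 6 genes in all 8 mice.

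Within single cells, thinned to 2000 UMIs (1989 cells), the same division appeared in most pairs of genes, but only in part for Vtn. Of the cells with Il13ra2, 28.5% held Clca3a1 against 61.5% of the cells without it, and 1.75% held Col12a1 against 18.4%. The phi coefficient, a correlation of presence and absence, was lowest for Il13ra2 with Clca3a1 (-0.30) and highest for Il13ra2 with Aqp1 (0.27), which 71.9% and 41.7% of cells with and without Il13ra2 held. Vtn and Clca3a1 had a phi of 0.26. These values are given over cells of 8 mice and carry the depth of each cell even after thinning.

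**Figure D3:**
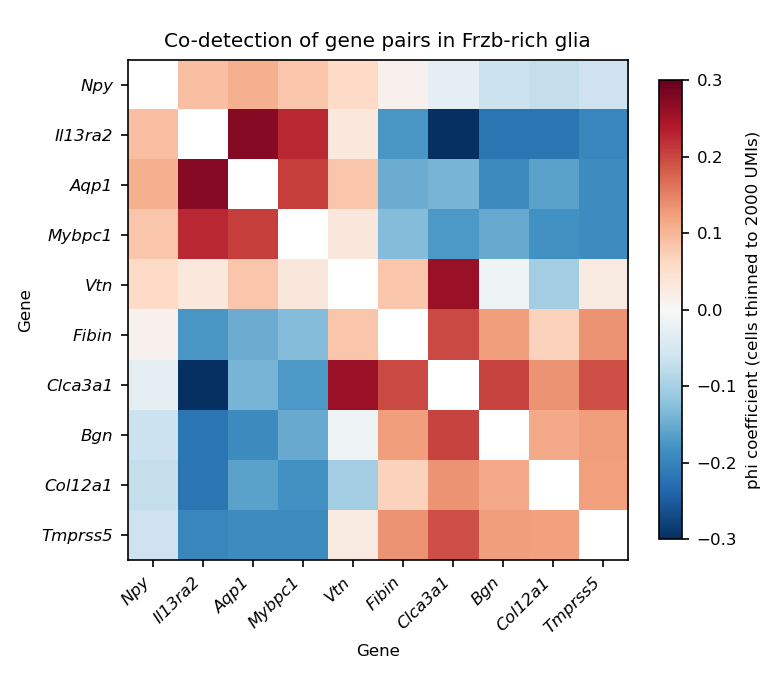
Phi coefficient of detection for each pair of the 10 genes over 1989 Frzb-rich cells thinned to 2000 UMIs, red positive and blue negative. The first 4 genes are positive among themselves and mostly negative with the last 5. Vtn, between them, is positive with the first 4 genes and negative with Bgn and Col12a1. The extremes are -0.30 (Il13ra2 with Clca3a1) and 0.27 (Il13ra2 with Aqp1).

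The receptors and relatives of the products were looked up in a list per gene. Npy had no partner in its own cells. Of the Y receptor genes Npy1r, Npy2r, Npy4r, Npy5r and Npy6r, the 2024 glia held 1 UMI of Npy1r and 0 of the others, where 3 UMIs would be 0.181 CPM. Npy1r (15.4 CPM in 6.77% of cells) and Npy5r (8.89 CPM in 5.56%) were found in neuron-like cells, and Npy1r also in 9 of the 39 cells of the cluster led by Dcn and Rgs5. Npy2r had 9 UMIs (31.3 CPM, in 20.7% of cells) in unnamed cluster 23 of 29 cells. The glia are sorted cells of a pooled tissue, so receptor cells that were not sorted were not measured.

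Il13ra2 likewise stood without the signalling receptor. Il13ra1, the chain that with Il4ra transmits interleukin-13 and interleukin-4 signals, had 0 UMIs in the 2024 glia (limit 0.181 CPM for 3 counts), and Il4ra had 2.35 CPM. In microglia-like cells the 2 genes had 70.9 and 57.0 CPM. Jak1, a kinase of many cytokine receptors, was at 89.1 to 121 CPM over the mice.

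For vitronectin, the glia expressed Itgb1 (136 to 220 CPM over the mice), Itgb8 (35.7 to 109 CPM) and Itgav (65.0 to 87.6 CPM), integrin chains of which Itgb1 and Itgb8 pair with the alpha-v chain. Itgb5 was at 0.963 CPM in the glia and at 814 CPM in microglia-like cells. Of the other aquaporins, Aqp11 was at 170 to 269 CPM over the mice and Aqp9, the next, at 4.39 CPM in the median mouse, and Aqp4, the aquaporin of astrocytes, was at 3.30 CPM against 263 CPM in all other cells. Among collagens related to Col12a1, Col9a2 (187 to 225 CPM) and Col16a1 (55.7 to 126 CPM) were present. Of the listed collagen type I genes, Col1a1 was at most at 0.547 CPM and Col1a2 at 5.65 to 10.6 CPM over the mice. Among small leucine-rich proteoglycans the next after Bgn was Fmod, at most at 7.95 CPM in a mouse, and Sfrp5, a relative of Frzb, had 106 CPM in the Vtn-rich and 5.96 CPM in the Npy-rich cluster.

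Profiles over the 22 clusters of at least 50 cells were compared on log2(CPM + 5). Among the genes most like the sum of the 10 were Frzb (Pearson r = 0.98), Foxd3 (0.97), Nid1 (0.97) and Ltbp2 (0.96), of 12929 genes searched. Foxd3, a transcription factor of the neural crest, was at 649 CPM in the glia with a UMI in 94.3% of cells, and at most at 54.4 CPM elsewhere. For single genes, those among the nearest were Eci3 and Slc26a7 for Il13ra2, Foxd3 and Myoz1 for Vtn, Myoz1 and Gm34838 for Clca3a1, Klre1, Pcolce and Gm29927 for Col12a1 and Col2a1, Smtnl2 and Dnah8 for Tmprss5. Bgn had the least close neighbours, S1pr3, Lpar3 and Plekha4, with r from 0.88 to 0.91. The clusters share their 4 libraries and the 2 Frzb-rich clusters dominate these values, which are a description.

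Changes with age and genotype were tested in the Frzb-rich glia with the RoB hashtag, summed per mouse: 68 and 68 cells for the WT young mice, 268 and 264 for WT old, 151 and 114 for KO young, and 229 and 329 for KO old, in the order of mouse 1 and mouse 2. All 10 genes passed the filter on low counts, together with 10066 genes in all. Sums were 408563 and 448800 UMIs in WT young and 1136509 to 2768926 UMIs in the other groups, so WT young values are the least precise. The share of cells in the Npy-rich cluster was 42.6% and 47.1% for the WT young mice, 36.2% and 33.0% for WT old, 44.4% and 44.7% for KO young, and 27.9% and 44.7% for KO old. The summed level of 8 neuroblast markers in the same sums was 88.1 and 840 CPM in WT young, 387 and 98.5 CPM in KO young and 13.7 to 21.7 CPM in the 4 old mice, and its part in the results was not tested. The summed level of 7 endothelial markers, mostly Cldn5, was 448 to 878 CPM, highest in the 2 WT old mice, and its part was not tested either. In cells of 1 type, fewer molecules per cell and a different mix of the 2 clusters cannot be told apart in a sum, so the values within each cluster stand beside the main ones.

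In WT mice, 3 of the 10 genes differed between the age groups: Aqp1 was higher in old mice and Vtn and Bgn were lower (edgeR quasi-likelihood test, Benjamini-Hochberg adjusted over all genes). Age, chase and reaction differ together between these 2 groups and cannot be told apart. Of all 10066 genes 1.95% were called in this comparison, 75 higher and 121 lower. Aqp1 had 286 and 285 CPM in the WT young mice and 517 and 463 CPM in the WT old mice, a log2 fold change of 0.73 ± 0.13 (SE, adjusted p = 0.00737). Both WT young mice lay below all 6 other mice. Within the clusters the change was 0.75 in Vtn-rich and 0.92 in Npy-rich cells, called in each (adjusted p = 0.0169 and 0.00441).

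Vtn was at 3830.5 and 4102 CPM in young and 2979 and 2952 CPM in old WT mice (log2 -0.47 ± 0.11, adjusted p = 0.0272). Bgn was at 240 and 178 CPM in young and 127 and 145 CPM in old WT mice (log2 -0.66 ± 0.16, adjusted p = 0.0387). In both genes the groups did not overlap. The calls held in the Vtn-rich cluster (log2 -0.56 and -0.75, adjusted p = 0.00991 and 0.0167) and not in the smaller Npy-rich sums (log2 -0.42 and -0.78, adjusted p = 0.153 and 0.2505). Clca3a1 had 1464 and 1174 CPM in young and 963 and 976 CPM in old WT mice (log2 -0.49 ± 0.14, adjusted p = 0.0846), and in the Vtn-rich cluster alone it passed (log2 -0.61, adjusted p = 0.00341).

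These calls rest on few mice. Without WT old mouse 1, WT old mouse 2 or WT young mouse 2 the adjusted p of Aqp1 was 0.0993, 0.0806 and 0.0796 and that of Vtn was 0.216, 0.230 and 0.194, with log2 changes of 0.67 to 0.83 and of -0.45 to -0.38. Vtn also missed the threshold without KO young mouse 1 (adjusted p = 0.0561). Bgn missed it in 6 of 8 such fits (adjusted p = 0.0639 to 0.289), all but those without a KO old mouse.

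The other 6 genes gave no call for age in WT. Npy had 8121 and 8565 CPM in young and 10271 and 9362 CPM in old mice (log2 0.19 ± 0.09, adjusted p = 0.308), a difference that missed the threshold. Il13ra2, Mybpc1 and Fibin had log2 differences of -0.09, 0.08 and -0.03. Col12a1 was at 120 and 77.99 CPM against 109 and 128 CPM, and Tmprss5 at 203 and 107 CPM against 123 and 135 CPM, and in both genes the groups overlapped. Frzb, which chose the clusters, had 1229 and 1103 CPM in young and 1196 and 1210 CPM in old WT mice.

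In KO mice none of the 10 genes was called for age (edgeR, 0.298% of all genes called). At an unadjusted p under 0.05 there were 2 of the 10, Vtn and Clca3a1, against 9.34% of all genes, and DESeq2 called 0 as well. Clca3a1 was at 1059 and 957 CPM in KO young and 863 and 589 CPM in KO old mice, a log2 difference of -0.48 ± 0.14 (adjusted p = 0.175), and in the Vtn-rich cluster alone the test was passed (log2 -0.66, adjusted p = 0.00489). Vtn was at 3375 and 3112 CPM in KO young and 3086 and 2449 CPM in KO old mice (log2 -0.23 ± 0.10, adjusted p = 0.501). Aqp1 was at 447 and 444 CPM and at 449 and 506 CPM (log2 0.11 ± 0.11, adjusted p = 0.842), with log2 values of -0.01 in the Vtn-rich and 0.31 in the Npy-rich cluster alone. The ages of the old groups differ, 80 weeks in WT and 92 to 105 weeks in KO.

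The genotype comparison in young mice called 1 of the 10 genes, Aqp1, with 0.546% of all genes called. Its level was 286 and 285 CPM in WT and 447 and 444 CPM in KO (log2 0.67 ± 0.13, adjusted p = 0.0176). The call was kept in the Vtn-rich cluster (log2 0.83, adjusted p = 0.0215) and not in the Npy-rich cluster (log2 0.53, adjusted p = 0.204), and it was lost without any 1 of the 4 young mice (adjusted p = 0.0667 to 0.115, log2 0.67 to 0.68). This comparison and that of age in WT share the WT young mice, which also had the shorter chase and the shallowest cells, and the effect of these 2 differences was not tested.

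A further 7 genes had an unadjusted p under 0.05 in young mice and missed the adjusted threshold, where 10.99% of all genes had such a p. Mybpc1 was at 220 and 238 CPM in WT and 325 and 309 CPM in KO (log2 0.49 ± 0.15, adjusted p = 0.189), and Npy at 8121 and 8565 CPM against 8881 and 10106 CPM (log2 0.21 ± 0.09, adjusted p = 0.382). Vtn, Fibin, Clca3a1, Bgn and Col12a1 had log2 differences from -0.48 to -0.26 (adjusted p = 0.340 to 0.414). The median over the 10 genes was -0.31, against 0.01 over all genes tested. By value, the 6 genes of the Vtn-rich cluster were lower and the 4 of the Npy-rich cluster higher in KO. The Npy-rich cluster held 42.6% and 47.1% of the cells in WT and 44.4% and 44.7% in KO. It gave 178981 of 408563 and 223750 of 448800 UMIs in WT. In KO it gave 757152 of 1474466 and 546067 of 1136509 UMIs. The part of this mix in the differences was not tested.

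In old mice none of the 10 genes was called for genotype, with 0.368% of all genes called (edgeR, and DESeq2 called 0 as well). Of the 10, 6 had an unadjusted p under 0.05 in edgeR, against 8.16% of all genes. Il13ra2 was at 197 and 187 CPM in WT old and at 199 and 285 CPM in KO old mice (log2 0.43 ± 0.14, adjusted p = 0.357). The value of KO old mouse 2 stood apart, and without KO old mouse 1, whose share of Npy-rich cells was the lowest of all, the fit called Il13ra2 (log2 0.66, adjusted p = 0.00696) and Clca3a1 (log2 -0.63, adjusted p = 0.0145). Within the Npy-rich cluster Il13ra2 was at 406 and 411 CPM in WT old and 438 and 472 CPM in KO old mice. Bgn was at 127 and 145 CPM against 178 and 146 CPM (log2 0.32 ± 0.13, adjusted p = 0.536), and Col12a1 at 109 and 128 CPM against 89.8 and 83.8 CPM (log2 -0.38 ± 0.14, adjusted p = 0.445).

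A difference in the age change between genotypes was not shown for any of the 10 genes. The interaction called 0 of all 10066 genes (0% called), with 979 at an unadjusted p under 0.05, and DESeq2 called 9 genes, none of them of the 10. Bgn (log2 0.74 ± 0.21, adjusted p = 0.249) and Aqp1 (log2 -0.62 ± 0.17, adjusted p = 0.216) had the largest values of the 10. The age changes of Aqp1 and Bgn in WT are therefore neither shown to differ from those in KO nor shown to be alike.

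**Figure D4:**
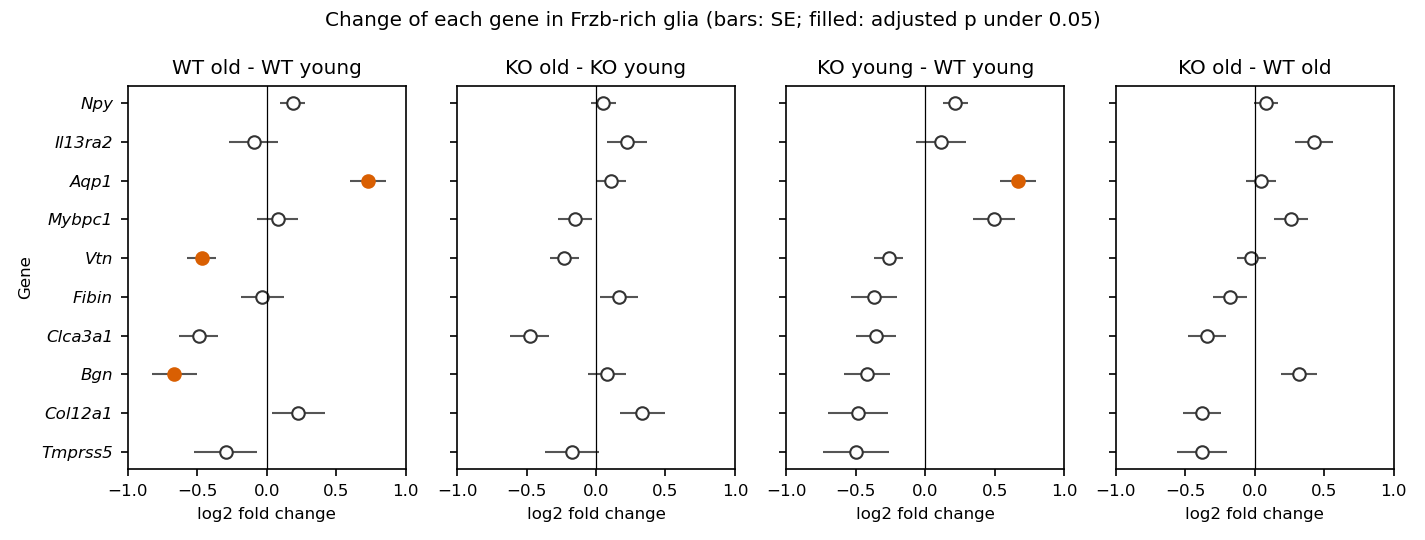
log2 fold change of each gene in the Frzb-rich glia for 4 comparisons over 2 mice per group, with bars of 1 standard error and filled points for an adjusted p under 0.05. Filled points are Aqp1, Vtn and Bgn for WT old against WT young and Aqp1 for KO young against WT young, and no point is filled in the other 2 panels.

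**Figure D5:**
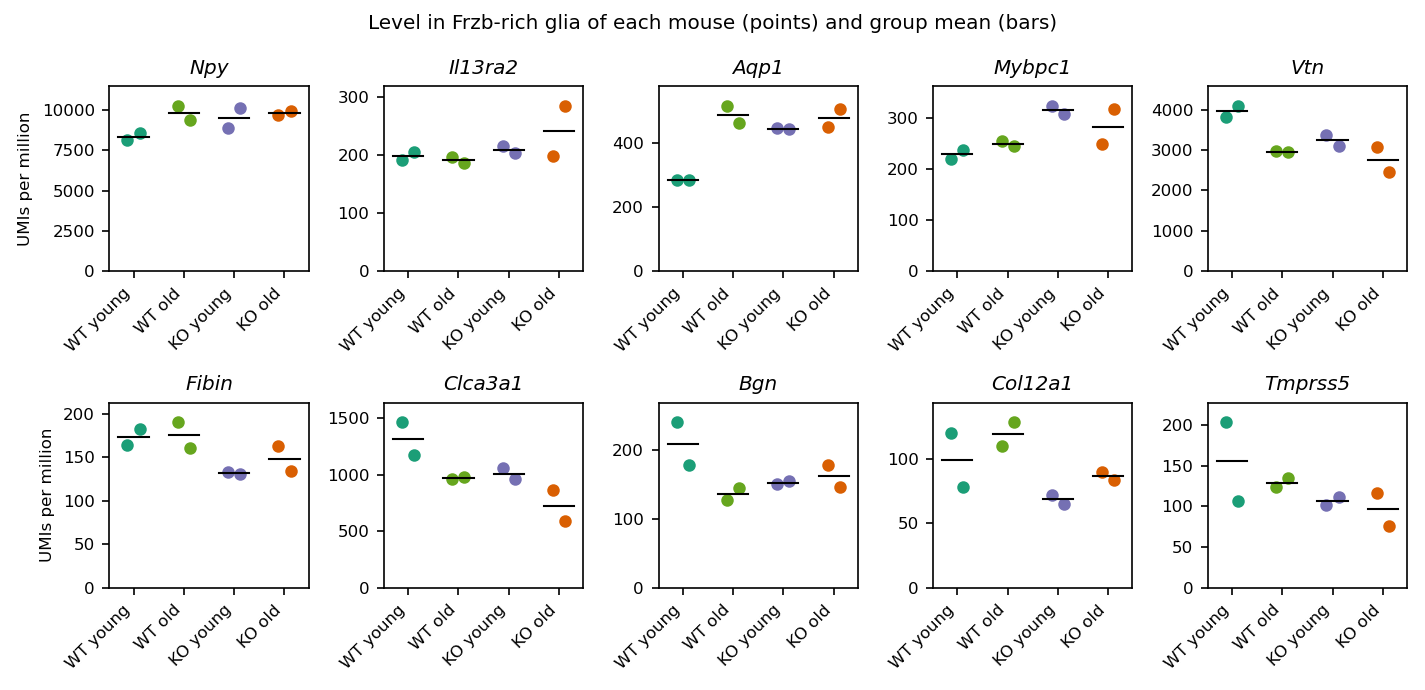
Level in CPM of each gene in the Frzb-rich glia of each mouse (points) with the mean of the 2 mice (bar), on axes that start at 0. Aqp1 is at 285 to 286 in WT young and at 444 to 517 in the other groups, and Vtn is highest in WT young at 3830.5 to 4102.

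In the same sums, of 30 core interferon-stimulated genes 28 were tested, 10 were called for genotype in young and 16 in old mice, all lower in KO, with medians of -1.84 and -1.21 on the log2 scale over the 28 genes, against 0.01 and 0.0030 over all genes. The most abundant were Ifitm3 (log2 -0.66 ± 0.12 in young and -0.56 ± 0.11 in old mice, adjusted p = 0.0115 and 0.0193), Ifi27 (log2 -1.03 ± 0.12 and -1.003 ± 0.11, adjusted p = 6.65e-05 and 1.19e-05) and H2-K1, which was called in neither (adjusted p = 0.189 and 1.00). Bst2, Ifit1, Ifit3, Isg15, Lgals3bp, Oasl2 and Rtp4 were among the other genes called in young mice. With 1 mouse left out, 6 to 10 of the interferon genes were called in young and 9 to 17 in old mice, all lower in KO. Without WT old mouse 1 or 2 there were 10 and 9 in old mice, and without KO young mouse 1 or WT young mouse 1 there were 6 in young mice. Ifi27 was called in each of these fits, and Ifitm3 was lost without KO young mouse 1 or 2 or WT young mouse 1 in young mice (adjusted p = 0.0781, 0.195 and 0.0862), and without KO old mouse 2 or WT old mouse 1 or 2 in old mice (adjusted p = 0.0817, 0.737 and 0.0706). Of the 10 glial genes, 1 and 0 were called in the same comparisons.

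With age in WT, 2 of the 28 interferon genes were called, where 1.95% of all genes were, Ifit1 higher (log2 0.86 ± 0.16, adjusted p = 0.0132) and Isg15 lower (log2 -1.96 ± 0.33, adjusted p = 0.00565), and in KO none was (1 without WT young mouse 1 or 2). Without WT old mouse 1, WT old mouse 2 or WT young mouse 2 both calls were lost (adjusted p = 0.0556, 0.143 and 0.110 for Ifit1 and 0.0723, 0.0806 and 0.110 for Isg15). In the list of vitronectin receptors and partners, 4 of 10 genes were tested. Itgb8, whose product with the alpha-v chain activates latent TGF-beta, was higher in old mice of both genotypes (log2 1.04 ± 0.23 in WT, adjusted p = 0.0247, and 0.76 ± 0.16 in KO, adjusted p = 0.0488). The call in WT was lost without WT old mouse 1, WT old mouse 2 or WT young mouse 2 (adjusted p = 0.0930, 0.1499 and 0.294). The call in KO was lost without KO old mouse 1, KO young mouse 1, KO young mouse 2, WT old mouse 1 or WT old mouse 2 (adjusted p = 0.114, 0.439, 0.2601, 0.0896 and 0.0988). Itgb1 and Itgav were not called in any comparison. Among the lists of NPY family, interleukin receptor pathway, aquaporin, CLCA, myosin-binding protein C, proteoglycan, collagen, protease and Wnt inhibitor genes, 1 to 4 genes each reached the test, and none beyond Aqp1 and Bgn was called in any comparison. Aqp11 had log2 changes of -0.35 ± 0.16 with age in WT and -0.36 ± 0.16 with genotype in young mice (adjusted p = 0.273 and 0.417), the opposite direction to Aqp1.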

How the data were processed

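Per the labels and methods, the authors aligned reads of 4 droplet (10x) libraries with kallisto and bustools to GRCm38 and deposited raw UMI count matrices for genes and counts of hashtag antibodies; their notes also name Scanpy 1.6.0. From these counts, cells with 100 to 6000 genes, 1000 to 20000 UMIs and at most 10% mitochondrial counts were kept, and 335 predicted doublets (Scrublet) were removed. Each reaction carried 4 hashtags, and the tissue and mouse of a cell were called with a mixture model, in 5815 cells. A sample of the hashtag data whose label gives no group was not used.

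Cells were clustered with scanpy 1.11.5 (2000 variable genes, 50 components, 15 neighbours, Leiden resolution 1), without the 10 genes, the interferon lists, mitochondrial genes and transgenes. Levels are CPM, a gene's UMIs scaled to all UMIs of the cells summed. For comparisons, UMI counts were summed per mouse over Frzb-rich glia with the RoB hashtag (at least 20 cells) and tested with edgeR 4.0.16 (filterByExpr, TMM, quasi-likelihood test, all 4 groups in 1 fit, R 4.3.3), with Benjamini-Hochberg adjusted p under 0.05 over all genes tested. The code was tested on simulated data. Intervals (95%, exact Poisson or binomial) and limits of 3 counts cover counting error only.

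The 10 genes and all gene lists were chosen with earlier results of these data known. Named beside the 10 genes are, per list, the most abundant other genes and any gene called, and genes near in profile; some results are not reported here. Npy1r, Npy2r, Npy5r, Npy6r, Il13ra1, Il4ra, Itgb5, Aqp4, Aqp9, Col1a1, Col1a2, Fmod and Clca3a2 were added as receptors or relatives after their values were seen. Alternatives were DESeq2 1.42.0, no filter on low counts, doublets kept, a strict hashtag call, both tissues, Leiden resolution 0.5, clustering with the genes left out before, RoB cells with a Frzb UMI, at least 2000 UMIs per cell, each cluster alone, and each mouse left out.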

Additional observations from a re-analysis of the deposited data

How the results depend on the processing

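The level of each of the 10 genes in the Frzb-rich glia moved by less than the spread between libraries under the 5 alternatives tried for it. These were doublets kept, Leiden resolution 0.5, and clustering with the 10 genes and the interferon genes included. The others were at least 2000 UMIs per cell and clusters with Frzb in at least 30% of cells. Leiden resolution 0.5 and the 30% limit returned the same 2024 cells as the main setting, so agreement there was fixed in advance. The share of UMIs in the glia moved by more than that with doublets kept for Clca3a1 (97.96%) and Tmprss5 (95.5%), and the share of cells with a UMI was lower after thinning for all 10 genes and Frzb. The 22 log2 changes of these genes with an unadjusted p under 0.05 kept their direction in all 20 alternatives, other than Tmprss5 for genotype in old mice, which was 0.11 in the Npy-rich cluster alone. At Leiden resolution 0.5 the cells were those of the main setting, so these changes could not differ. Counts of all genes called moved by over 1.5 times as follows. For age in WT (196 genes), 381 were called with doublets kept, 413 with no filter on low counts and 49 in the Npy-rich cluster alone. For age in KO (30), the counts were 53 when clustering used the genes left out before, 11 with DESeq2, 87 with doublets kept, 193 with no filter, 13 in the Npy-rich cluster and 48 with the strict hashtag call. For genotype, no filter gave 178 in young mice (55) and 109 in old mice (37), and the Npy-rich cluster gave 35 in young mice. For the interaction (0), the counts were 4 when clustering used the genes left out before, 9 with DESeq2, 9 with doublets kept, 63 with no filter, 3 in the Npy-rich and 5 in the Vtn-rich cluster, and 1 in RoB cells with a Frzb UMI. The cause of these shifts was not tested.

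Leaving out each mouse gave 0 to 259 genes for age in WT, 0 to 86 for age in KO, 22 to 83 and 19 to 66 for genotype in young and old mice, and 0 to 23 for the interaction. Without filter on low counts, Clca3a1 was called for age in WT and in KO (adjusted p = 0.00682 and 0.00605) and Mybpc1 for genotype in young mice (0.0437), and with the strict hashtag call Clca3a1 was called for both (0.0387 and 0.0489). Clca3a1 was also called for age in WT without KO old mouse 1 (0.0224) or 2 (0.0212), and for age in KO without KO old mouse 1 (0.0158). With cells that share a barcode sequence left out, an alternative chosen after seeing the data, 204, 32, 57, 39 and 0 genes were called in the 5 comparisons. No paired analysis was possible because equal hashtag numbers in different groups belong to different mice. The 2 mice per group and 1 reaction per group limit every comparison, and the 68 cells of each WT young mouse are the least precise.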
